A study of Mus musculus with 4 samples.

Results

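The Rab GTPase genes were examined in double-positive (DP) thymocytes, immature T cells that display CD4 together with CD8a. Members were all gene symbols in the count files made of Rab, a number, and at most a letter and a digit after it, which gave 59 of 35976 symbols. Rab44 was set against the other 58 because its rise in these libraries was already known, so its values below are not independent evidence for that choice. Mouse thymocytes had been sorted for CD24, CD4 and CD8a on the surface and for absence of TCRb there. There were 2 libraries from mice with floxed Cxxc1 and the Lck-cre transgene (Cxxc1 F/F, here KO) and 2 from mice with wild-type Cxxc1 and the same transgene (Cxxc1 +/+, here control), so cre was present in both groups. Lck-cre is active in T-lineage cells. The product of Cxxc1 recognises CpG without methylation and is a subunit of complexes that methylate histone H3 at lysine 4. The sources used here do not state age, sex or how many animals stand behind each library. Since no label ties the libraries to separate animals, p-values measure the spread between these 4 samples only, and that spread may be technical.

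Rab proteins are small GTPases that switch between a GTP-bound form on a membrane and a GDP-bound form kept in the cytosol. Each marks particular membranes, such as the endoplasmic reticulum, the Golgi, endosomes, lysosomes or secretory vesicles, and recruits effectors that move, tether or fuse vesicles there. Exchange factors turn a Rab on, GTPase-activating proteins turn it off, and prenylation lets it attach to membranes. In T cells this traffic returns T cell receptors and coreceptors to the surface and carries secretory granules. Rab44 belongs to the large Rab GTPases, which carry EF-hand calcium-binding and coiled-coil regions ahead of the GTPase domain, and has been studied in mouse mast cells and osteoclasts.

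Counts assigned to genes totalled 36243182 and 33544428 in KO 1 and KO 2, and 12150508 and 34820446 in control 1 and control 2. Levels are CPM, read counts scaled to a common depth, on TMM-scaled library sizes, and a floor of 3 counts stood for 0.0843 to 0.252 CPM, covering counting error only. Cxxc1 itself was at 35.7 and 39.4 CPM in KO libraries, against 110.7 and 53.5 CPM in control libraries, a log2 fold change of -1.12 that did not pass the test (adjusted p = 0.199, edgeR). The sources used here do not state which exons were floxed, so reads outside them may remain in the KO. The defining DP genes Cd4, Cd8a, Rag1 and Dntt were well above the floor in every library. Of the 12 DP markers 3 were called lower in KO and 0 higher, where the background was 0.181% lower and 0.27% higher. The 3 were Cd4, Cd8a and Dntt, with log2 fold changes of -2.093, -2.06 and -2.055. Ptcra of the same list went the other way. It was higher in both KO libraries than in either control library, without a call (log2 fold change 2.13, adjusted p = 0.138, edgeR). The summed level of the 12 was 6103 and 8852 CPM in KO, against 12730 and 16190 CPM in control. Rag1 alone was at 2997 and 4488 CPM in KO, against 4967 and 7055 CPM in control. Of the 11 markers of the preceding double-negative stage, 8 were tested and 2 were called higher in KO. The 2 were Il2ra and Il7r, with log2 fold changes of 3.98 and 5.58. Among the other tested markers of this stage, Hes1 and Mef2c were higher in both KO libraries than in either control library. Cd44 and Lyl1 were lower in both. The log2 fold changes were 6.90 for Hes1, 0.56 for Mef2c, -1.30 for Cd44 and -0.45 for Lyl1, without a call. The sum of the 11 was 271.6 and 144.7 CPM in KO, against 52.5 and 51.9 CPM in control. Il2ra alone was at 200.6 and 97.02 CPM in KO, against 9.84 and 9.03 CPM in control. Neither sum therefore stands for every marker in its list. In bulk samples, fewer cells of a type and less RNA per cell cannot be told apart.

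Promoter sequences are shown for Rab6a, Rab6b and Rab8b, the members above 10 CPM other than Rab44 with an unadjusted p below 0.05, for Rab8a, the close relative of Rab8b, and for Rab9, because Cxxc1 binds CpG and these span CpG-rich to CpG-poor windows. Each is 300 bases from RefSeq on GRCm38.p6, 250 before the start and 50 after it, written 5′ to 3′ on the gene's strand, with every CG in capitals. Rab6a lies at chr7:100607336-100607635 (+), Rab6b at chr9:103111824-103112123 (+), Rab8b at chr9:66919656-66919955 (-), Rab8a at chr8:72160950-72161249 (+) and Rab9 at chrX:166479818-166480117 (-). The promoter table had 48 of the 59 members, and Rab44 was among those without an entry.
Rab6a: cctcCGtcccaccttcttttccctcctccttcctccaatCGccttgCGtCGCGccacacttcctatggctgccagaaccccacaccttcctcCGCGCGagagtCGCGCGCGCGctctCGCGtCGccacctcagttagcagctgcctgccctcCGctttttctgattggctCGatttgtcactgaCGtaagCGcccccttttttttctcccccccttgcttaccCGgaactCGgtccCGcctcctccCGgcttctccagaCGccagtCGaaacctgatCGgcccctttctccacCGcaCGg
Rab6b: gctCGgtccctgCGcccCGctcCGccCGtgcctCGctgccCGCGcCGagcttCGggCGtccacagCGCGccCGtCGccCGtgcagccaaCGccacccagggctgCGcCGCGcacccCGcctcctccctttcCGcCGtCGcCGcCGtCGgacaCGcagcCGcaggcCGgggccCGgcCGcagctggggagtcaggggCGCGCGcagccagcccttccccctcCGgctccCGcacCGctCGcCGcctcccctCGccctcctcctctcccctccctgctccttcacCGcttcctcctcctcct
Rab8b: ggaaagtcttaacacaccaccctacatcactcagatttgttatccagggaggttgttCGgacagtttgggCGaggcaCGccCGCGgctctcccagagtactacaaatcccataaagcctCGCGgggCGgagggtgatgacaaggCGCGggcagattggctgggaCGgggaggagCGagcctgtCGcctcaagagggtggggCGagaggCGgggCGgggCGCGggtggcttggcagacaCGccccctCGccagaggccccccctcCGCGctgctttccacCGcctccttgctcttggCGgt
Rab8a: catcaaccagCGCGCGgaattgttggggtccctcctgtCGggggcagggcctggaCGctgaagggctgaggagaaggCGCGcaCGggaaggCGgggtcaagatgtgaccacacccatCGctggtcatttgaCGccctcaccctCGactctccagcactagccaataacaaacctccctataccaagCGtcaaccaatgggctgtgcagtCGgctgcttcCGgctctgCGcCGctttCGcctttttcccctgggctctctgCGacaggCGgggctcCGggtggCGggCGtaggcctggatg
Rab9: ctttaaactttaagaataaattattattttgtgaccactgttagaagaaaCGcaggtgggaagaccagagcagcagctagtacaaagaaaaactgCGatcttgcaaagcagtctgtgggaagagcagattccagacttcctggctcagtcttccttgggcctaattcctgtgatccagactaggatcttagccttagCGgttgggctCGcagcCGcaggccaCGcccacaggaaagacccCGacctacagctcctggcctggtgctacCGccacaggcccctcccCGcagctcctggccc

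Rab promoters were rich in CpG, as were those of most expressed genes. The windows of Rab6a and Rab6b held 29 and 42 CG, those of Rab8b and Rab8a 24 and 23, and that of Rab9, which lets late endosomal cargo return to the Golgi, held 9. The family median was 24.5 CG over 48 members, with a range of 5 to 45, against a median of 18 over 14352 tested genes, taking the window with the most CG for each gene. Among members of at least 10 CPM, 28 of 29 had 10 or more CG, and 88.2% of tested genes at that level did. Among members below 10 CPM, 13 of 19 did. The lowest number of CG was 5, in Rab17, which had no reads in control cells.

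Short motifs were also searched on both strands of these windows, as letters only. TGTGGT, a core bound by Runx factors, was in 16.7% of Rab promoters and 14% of tested promoters. TGGGAA, bound by the Notch partner Rbpj, was in 27.1% and 24%, and CACGTG, bound by Myc, in 8.33% and 9.18%. CAGCTG, bound by E proteins, was in 27.1% and 16.2%, and GGAAGT, bound by Ets factors, in 27.1% and 26.3%. TGGGAA and GGAAGT share the letters GGAA and can overlap. Of the windows printed above, those of Rab6a and Rab6b held CAGCTG, those of Rab6a and Rab9 held GGAAGT, that of Rab9 held TGGGAA and that of Rab8a held TGTGGT.

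Rab44 rose strongly in KO DP thymocytes while no other family member passed the test. Of 59 members, 56 passed the filter on low counts and were tested, and 1 of them, Rab44, was higher. The background was 0.451% of 20389 genes called in either direction and 0.27% called higher. The 3 untested members were Rab20 and Rab9b, with no reads in any library, and Rab34, with 10 reads, all in control 2. The same member was the one called under DESeq2, where 3 members had no adjusted p. Among the other 55 tested members edgeR called 0, and 4 had an unadjusted p below 0.05, 2 higher and 2 lower, where the background at that p was 13.9%, made of 6.97% higher and 6.91% lower. Without control replicate 2, a second member was called, Rab32, a Rab of lysosome-related organelles, which had 104 and 196 reads in KO, against 0 reads in control 1 and 83 in control 2.

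Rab44 (ENSMUSG00000064147.7, chromosome 17, 29114128 to 29148980 on GRCm38) had 5646 and 3254 reads in KO 1 and KO 2, against 25 and 110 reads in control 1 and control 2. These were 162 and 91.4 CPM in KO, against 2.10 and 3.17 CPM in control. Both KO libraries lay far above both control libraries, and KO 1 was the higher of the KO pair. The mean was 126.7 ± 49.9 CPM in KO and 2.64 ± 0.758 CPM in control (SD, n = 2 each), a log2 fold change of 5.54 ± 0.40 (SE) or 46.6-fold, with a 95% interval of 4.65 to 6.43 (adjusted p = 0.00144, edgeR's quasi-likelihood test over all genes). Over the other settings tried, replicates left out included, the log2 fold change ran from 5.12 to 5.91 and the call held in each.

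Within the family, Rab44 was among the strongest members in KO cells and among the weaker ones in control cells. It made up 9.37% of all Rab reads in KO 1 (95% exact binomial interval 9.14% to 9.60%) and 5.14% in KO 2 (4.97% to 5.31%), against 0.132% in control 1 (0.0855% to 0.195%) and 0.18% in control 2 (0.148% to 0.217%). The intervals cover counting error only. The share was 7.25 ± 2.99% in KO and 0.156 ± 0.0339% in control (SD, n = 2 each), a difference of 7.10 percentage points. An exact permutation test over the 4 libraries gave p = 0.333, two-sided, which is the smallest p that 2 against 2 libraries can give. This share needs no scaling between libraries.

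Levels between members were compared per length, as CPM per kilobase of the joined exons of the GENCODE M21 annotation, since the sources used here do not state the annotation used for counting. On that scale Rab44 was at 32.0 and 18.1 in KO 1 and KO 2, against 0.415 and 0.626 in control 1 and control 2. It ranked 2 and 10 of 59 in KO, against 40 and 41 in control. Rab2a, an endoplasmic reticulum to Golgi Rab, had the highest mean, at 37.3 and 51.1 in KO and 41.9 and 57.7 in control. Next came Rab5c of early endosomes, at 31.1 and 30.7 in KO and 32.1 and 26.8 in control, and Rab7 of late endosomes, at 26.9 and 25.5 in KO and 27.5 and 26.5 in control. Rab44 in KO 1 was just above Rab5c there, and in KO 2 it was below Rab7.

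**Figure D1:**
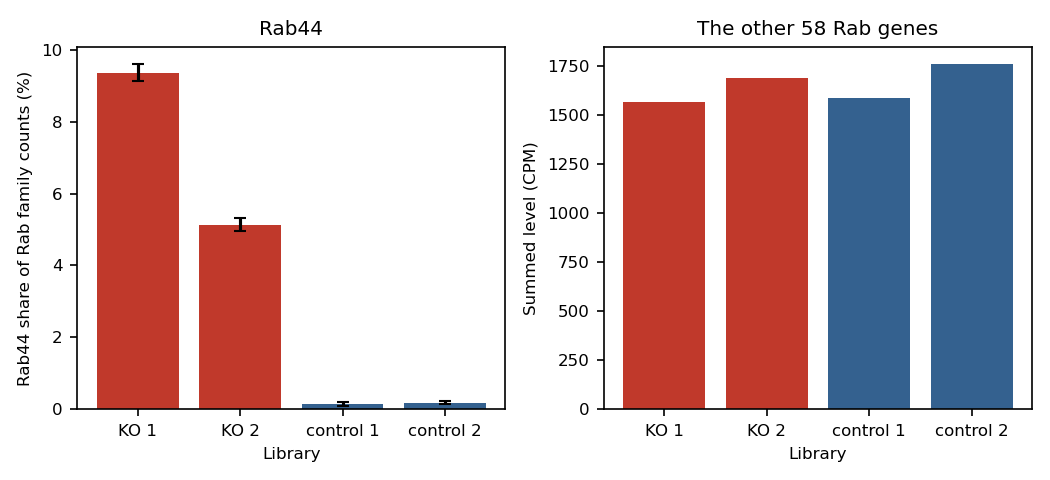
Left, the share of all Rab family reads taken by Rab44 in each library, in percent, with 95% exact binomial intervals. Right, the summed level of the other 58 Rab genes in CPM; Rab44 took 9.37% and 5.14% in KO, against 0.132% and 0.18% in control, while the sums of the others overlapped between genotypes.

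The rest of the family had overlapping summed levels in KO and control. The other 58 genes added up to 1568 and 1688 CPM in KO, against 1590 and 1760 CPM in control, and the groups overlapped. The mean was 1628 ± 85.3 CPM in KO and 1675 ± 120 CPM in control (SD, n = 2 each). The median log2 fold change was 0.03 over the 55 other tested members, beside -0.04 over all tested genes, and it ran from -0.10 to 0.098 over the settings tried. Libraries of the genotypes did not overlap for 23 of the 55, 13 higher and 10 lower in KO, where the background was 46.8% of tested genes in either direction, 22.8% higher and 24% lower.

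Precision depended on level. Of 34 members with a mean of at least 10 CPM, the median standard error of the log2 fold change was 0.27. Leaving out Rab44, 22 of the 33 others had a 95% interval that stayed within a 2-fold change either way, beside 23.4% for all genes tested and 4751 of 9255 genes of at least 10 CPM. Their values ran from -0.96 for Rab33b to 0.58 for Rab29. The 22 tested members below 10 CPM had a median standard error of 1.76, and none had an interval within 2-fold, so a change of that size could not be told from none there.

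**Figure D2:**
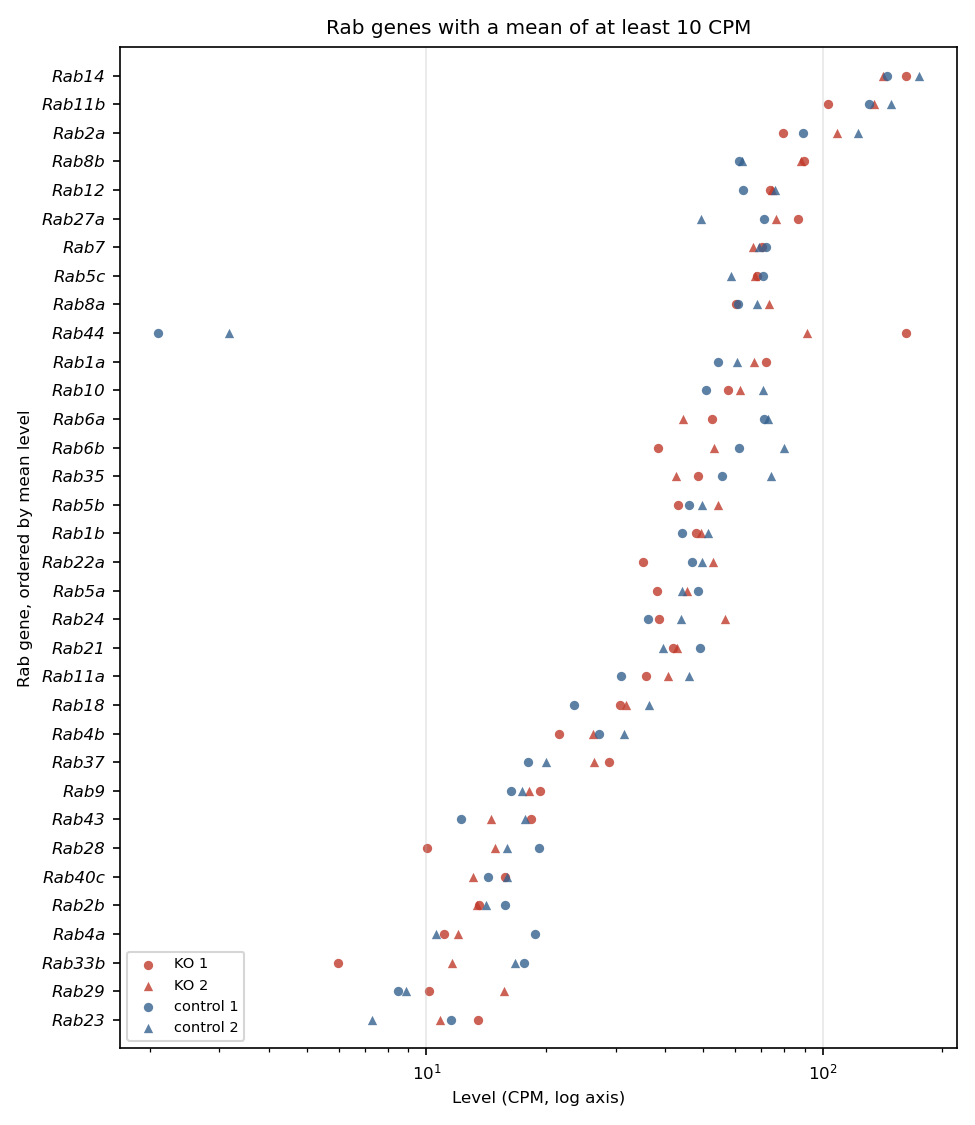
Level of each Rab gene with a mean of at least 10 CPM in every library, on a log axis. Rab44 has KO points of 162 and 91.4 CPM with control points of 2.10 and 3.17 CPM, while the other 33 genes have log2 fold changes between -0.96 and 0.58.

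**Figure D3:**
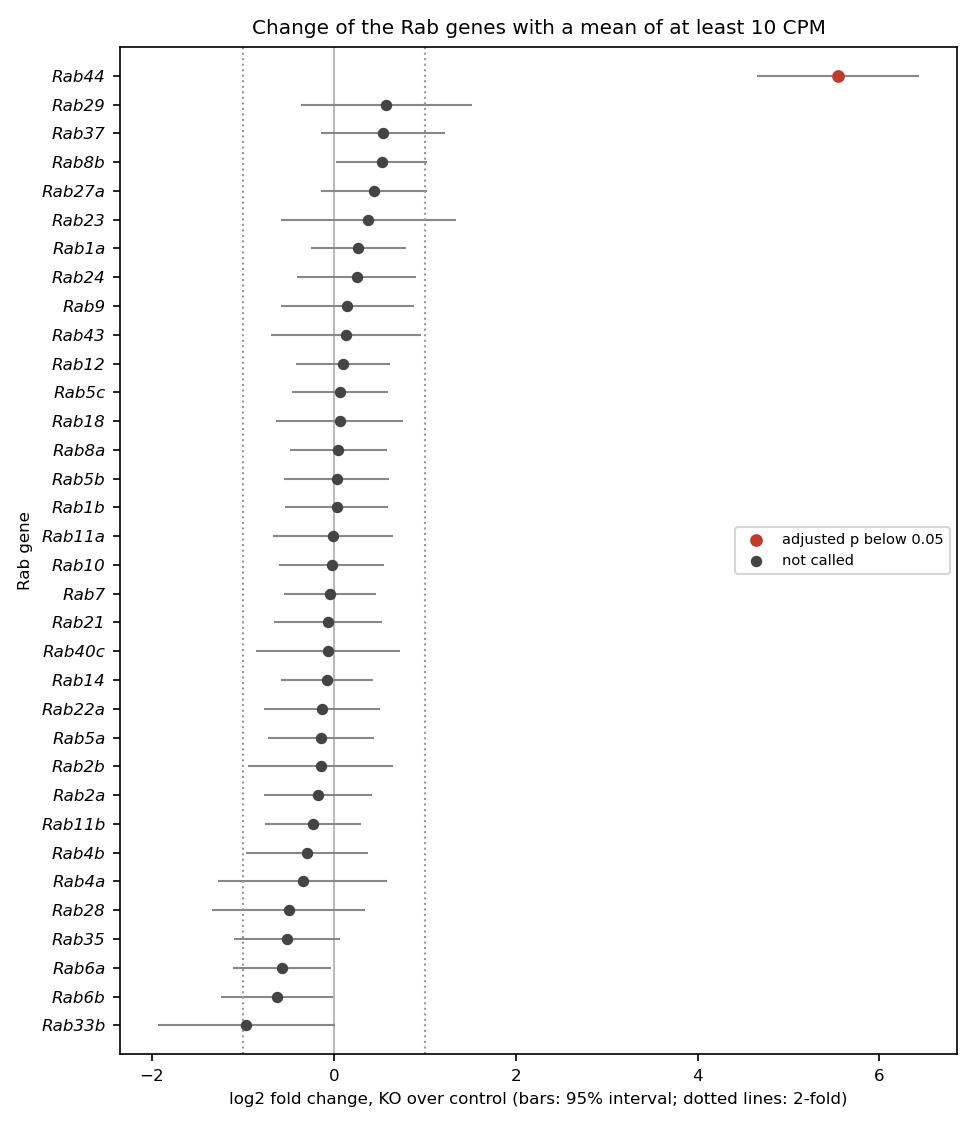
log2 fold change of the same genes, KO over control, with 95% intervals; dotted lines mark a 2-fold change. Rab44 stands at 5.54 with an adjusted p below 0.05, and the others lie between -0.96 and 0.58 with none called.

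Rabs of the endoplasmic reticulum and Golgi gave no call, and the 2 members with an unadjusted p below 0.05 both had lower values in KO. All 12 of this group were tested, 0 were called by edgeR or DESeq2, and the median log2 fold change was -0.16. Libraries did not overlap for 6 of the 12, 5 lower and 1 higher in KO, which is near the background of 46.8%, and the background at an unadjusted p below 0.05 was 13.9%. Rab6a (chromosome 7, 100607575 to 100641268), which acts in traffic within and out of the Golgi, was at 52.7 and 44.4 CPM in KO, against 71.2 and 72.8 CPM in control. Its log2 fold change was -0.57 ± 0.24 and did not pass the test (adjusted p = 0.337, edgeR). Its gene body overlaps that of the mitochondrial ribosomal protein gene Mrpl48, which was at 29.5 and 28.7 CPM in KO, against 14.4 and 10.9 CPM in control. The sources used here do not state the strand setting of the counting, so reads of the overlap may have been assigned to either or to neither.

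Rab6b (chromosome 9, 103111667 to 103185276), the closest relative of Rab6a and best known from neurons, was at 38.3 and 53.2 CPM in KO, against 61.5 and 79.8 CPM in control. KO libraries lay below control libraries, and the log2 fold change was -0.63 ± 0.27 (adjusted p = 0.354, edgeR). Reads shared between the pair could be split by the counting, so each value is uncertain to that extent. Rab2a (chromosome 4, 8535469 to 8607702), the strongest of the group, was at 79.6 and 108.9 CPM in KO, against 89.4 and 123 CPM in control. Its groups overlapped, and the log2 fold change was -0.17 ± 0.26. Rab33b, a Golgi Rab tied to autophagy, was at 5.97 and 11.6 CPM in KO, against 17.7 and 16.7 CPM in control, the lowest log2 fold change among members above 10 CPM (-0.96 ± 0.43, adjusted p = 0.364, edgeR). Rab19 was also lower in both KO libraries, with 70 and 224 reads, against 90 reads in the shallower control 1 and 416 in control 2 (log2 fold change on scaled levels -1.24 ± 0.62). The 1 member above control in both KO libraries was Rab1a, which carries vesicles out of the endoplasmic reticulum, with 71.8 and 67.0 CPM in KO, against 54.4 and 60.7 CPM in control. Its relative Rab1b overlapped, and the log2 fold changes of this pair were 0.27 ± 0.23 and 0.03 ± 0.25. The remaining members, Rab2b, Rab18, Rab30, Rab33a and Rab43, had log2 fold changes between -1.02 and 0.13, with the lowest in Rab33a, whose standard error was 1.17.

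Early endosome Rabs gave no call. Of 9 members 8 were tested, 0 were called by edgeR or DESeq2 and 0 had an unadjusted p below 0.05, and libraries did not overlap for 1 of the 8, Rab4b, lower in KO, where the background was 46.8%. Rab5c (chromosome 11, 100715003 to 100738215), which directs fusion of incoming endocytic vesicles, was at 68.1 and 67.4 CPM in KO, against 70.5 and 58.7 CPM in control. Its log2 fold change was 0.07 with a 95% interval of -0.46 to 0.59. Its relatives Rab5a and Rab5b had log2 fold changes of -0.14 and 0.03. Rab21 and Rab22a, which sort cargo at early endosomes, had -0.06 ± 0.26 and -0.13 ± 0.28 on the same scale. Rab31 was below 1 CPM in every library. In 6 of the 8 tested members the interval stayed within 2-fold.

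Recycling and exocytic Rabs gave 1 member of 12 with an unadjusted p below 0.05, where the background was 13.9%. All 12 were tested and 0 were called by edgeR or DESeq2, and the median log2 fold change was 0.02. That member was Rab8b (chromosome 9, 66843609 to 66919705), which directs vesicles to the plasma membrane, at 89.8 and 88.4 CPM in KO, against 61.4 and 62.5 CPM in control. The libraries of each genotype were close together and did not overlap, and the log2 fold change was 0.52 ± 0.22 (adjusted p = 0.339, edgeR). Rab8a, its close relative, was at 60.4 and 73.1 CPM in KO, against 61.0 and 68.1 CPM in control, a log2 fold change of 0.05 ± 0.24. The ratio of Rab8b to Rab8a reads was 1.49 and 1.21 in KO, against 1.01 and 0.919 in control, and the difference between these genes' changes was not tested.

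Rab14 (chromosome 2, 35180205 to 35201120), which works between the trans-Golgi and recycling endosomes, had the highest CPM of the family as a mean over the 4 libraries. It was at 162 and 142 CPM in KO, against 145 and 175 CPM in control, and its groups overlapped. The log2 fold change was -0.07 with a 95% interval of -0.58 to 0.43. Rab11a and Rab11b, the recycling endosome Rabs, had log2 fold changes of -0.01 ± 0.29 and -0.23 ± 0.23. Rab35, a recycling Rab of the plasma membrane used at the immunological synapse, was at 48.5 and 42.5 CPM in KO, against 55.8 and 73.9 CPM in control, without overlap (log2 fold change -0.51 ± 0.26, adjusted p = 0.426, edgeR). Rab13, Rab15, Rab17 and Rab25 were below 2.5 CPM in every library. Rab17, an epithelial Rab, had 12 and 16 reads in KO, against none in control. Its pooled KO level was 6.17 times a floor of 3 reads over the control group, which covers counting error only. This gene passed the low-count filter through its KO reads alone. The 95% interval of its log2 fold change, -0.34 to 13.44, included no change (adjusted p = 0.384, edgeR).

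Late endosome and lysosome Rabs included 1 member with an unadjusted p below 0.05, near the limit of detection, where the background at that p was 13.9%. Of 13 members 11 were tested and 0 were called by edgeR or DESeq2, with a median log2 fold change of 0.23. Rab7 (chromosome 6, 87999106 to 88045270), which drives maturation of late endosomes and their fusion with lysosomes, was at 70.1 and 66.6 CPM in KO, against 71.7 and 69.2 CPM in control. Its log2 fold change was -0.04 with a 95% interval of -0.54 to 0.46. Rab39b (chromosome X, 75572045 to 75578231), a Rab known from neurons, had 24 and 30 reads in KO, against no reads in either control library. Its pooled KO level was 11.9 times a floor of 3 reads over the control group, which covers counting error only. It passed the low-count filter through its KO reads alone. The 95% interval of its log2 fold change was 1.02 to 13.96, and it did not pass the test (adjusted p = 0.298, edgeR). Rab9, whose promoter is printed above, was at 19.3 and 18.1 CPM in KO, against 16.3 and 17.4 CPM in control, and its log2 fold change was 0.15 ± 0.32. Rab29, which acts with the kinase LRRK2, was at 10.2 and 15.7 CPM in KO, against 8.49 and 8.86 CPM in control, without overlap (log2 fold change 0.58 ± 0.42). Rab24, an unusual Rab linked to autophagy, overlapped and had 0.25 ± 0.29. Rab36 and Rab38 were below 1 CPM in every library, and Rab39 and Rab42 overlapped between genotypes.

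Secretory Rabs gave 0 calls by edgeR or DESeq2 among 8 tested members, with 0 at an unadjusted p below 0.05. Rab27a (chromosome 9, 73044810 to 73097623), which docks cytotoxic granules at the plasma membrane, was at 86.8 and 76.03 CPM in KO, against 71.0 and 49.3 CPM in control. KO libraries lay above control libraries, and the log2 fold change was 0.44 ± 0.26 (adjusted p = 0.499, edgeR). Its relative Rab27b had 6 and 7 reads in KO, against 6 and 64 in control. It had the lowest fitted log2 fold change of the family, -2.66 ± 1.65 (adjusted p = 0.531), with most of the control reads in 1 library. Rab37, a Rab of secretory granules, was at 29.0 and 26.5 CPM in KO, against 18.1 and 20.05 CPM in control, without overlap (log2 fold change 0.54 ± 0.30, adjusted p = 0.48, edgeR). The Rab3 genes of regulated exocytosis, Rab3a, Rab3b, Rab3c and Rab3d, were below 5.5 CPM in every library, and none had an adjusted p under 0.652.

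The remaining small Rabs were Rab23, Rab28, Rab40b and Rab40c, known from cilia or from ubiquitin ligase complexes. None was called, by edgeR or DESeq2. Rab28 was at 10.0 and 14.9 CPM in KO, against 19.3 and 15.98 CPM in control, without overlap (log2 fold change -0.49 ± 0.37). Rab23, which restrains Hedgehog signalling in mouse, had a log2 fold change of 0.38 ± 0.43.

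**Figure D4:**
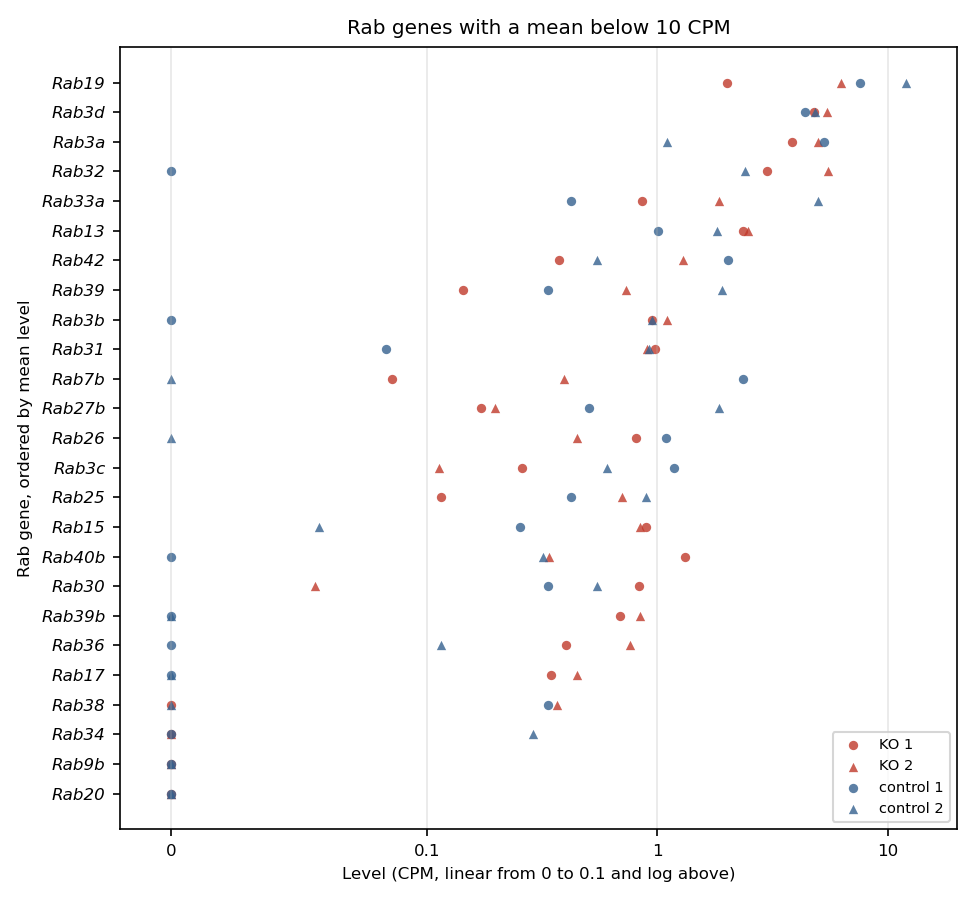
Level of each Rab gene with a mean below 10 CPM in every library, on an axis that is linear from 0 to 0.1 and logarithmic above. KO and control points do not overlap for 10 of the 22 tested genes, or 45.45%, beside 46.8% of all tested genes, and Rab39b and Rab17 have points above 0 in both KO libraries and at 0 in both control libraries.

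The other large Rab GTPases were set beside Rab44. Cracr2a, which binds calcium and takes part in store-operated calcium entry in T cells, was at 83.9 and 95.8 CPM in KO, against 44.6 and 57.9 CPM in control. Its KO libraries lay above its control libraries, and the log2 fold change, 0.81 ± 0.24, did not pass the test (adjusted p = 0.198, edgeR). Rasef, the third gene of this kind, had no reads in KO and was at 0.504 and 0.173 CPM in control, and was not tested. The 95% intervals were 4.65 to 6.43 for Rab44 and 0.26 to 1.36 for Cracr2a. Rab44 was chosen for its known rise, and the difference between these genes' changes was not tested.

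Genes next to Rab44 on chromosome 17 were read out in the same way. Cpne5, which encodes a calcium-dependent membrane-binding copine and lies 7541 bases beyond Rab44, had 904 and 712 reads in KO, against 9 and 181 reads in control. Its KO libraries were the higher pair, and the log2 fold change of 2.87 ± 0.70 did not pass the test (adjusted p = 0.123, edgeR), although it passed under DESeq2 and when either control replicate was left out (2.14 and 4.92). On the other side, the cell cycle inhibitor gene Cdkn1a, which lies 13406 bases before Rab44, was at 13.7 and 3.88 CPM in KO, against 8.41 and 1.07 CPM in control. Its libraries overlapped (log2 fold change 0.93 ± 0.91), and its value was 3.04 without control replicate 1, where it was called. The next genes out, the noncoding RNA gene Trp53cor1 and Gm41557, were at 0.689 and 3.48 CPM and at 0.172 and 0.478 CPM in KO, against 1.85 and 0 CPM and 1.34 and 0 CPM in control, and both overlapped.

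Rab regulators and effectors were then counted from lists of 123 genes, all of which were tested. By edgeR's adjusted p 1 was called higher and 0 lower in KO, where the background was 0.451%. DESeq2 called 5 higher and 1 lower, where its own background was 977 of 20389 genes, 451 higher and 526 lower. By edgeR 11 were higher and 10 lower at an unadjusted p below 0.05, where the background was 6.97% higher and 6.91% lower. Libraries of the genotypes did not overlap for 64 of the 123, 32 in each direction, a share of 52.03% beside 46.8% of all tested genes. The median log2 fold change was -0.05, beside -0.04 for all tested genes. Of the 8 genes of prenylation and GDP dissociation inhibition, 0 were called by edgeR or DESeq2 and 0 had an unadjusted p below 0.05 by edgeR. Gdi2, which extracts GDP-bound Rabs from membranes, was at 278 and 230.8 CPM in KO, against 242.7 and 261.8 CPM in control (log2 fold change 0.01, 95% interval -0.49 to 0.51).

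The gene called by edgeR was Evi5, a GTPase-activating protein reported to act on the recycling Rab, Rab11. It was at 45.7 and 32.3 CPM in KO, against 6.89 and 8.08 CPM in control, with a clear gap between the genotypes. The log2 fold change was 2.38 ± 0.34, or 5.19-fold (adjusted p = 0.0272, edgeR), and 2.14 without KO replicate 1, where the call ended. It was the 1 call by edgeR among 36 GTPase-activating proteins, whose median was 0.15. DESeq2 called Evi5 and Tbc1d8, where it called 977 of 20389 genes in all. Tbc1d8 and the Rab7 regulator Tbc1d5 had the next smallest p-values, with log2 fold changes of 1.23 ± 0.33 and 0.91 ± 0.27 (adjusted p of 0.163 and 0.194, edgeR). At an unadjusted p below 0.05 by edgeR 4 of the 36 were higher and 2 lower, beside 13.9% of all tested genes. The 2 lower were Evi5l and Tbc1d10c, with log2 fold changes of -1.04 and -0.76. Libraries of the genotypes did not overlap for 16 of the 36, 11 higher and 5 lower, where the background was 46.8%.

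Exchange factors gave 0 calls among 33 by edgeR and 1 by DESeq2, which called 977 of 20389 genes in all. At an unadjusted p below 0.05 by edgeR 2 were higher and 2 lower, beside 13.9% of all tested genes. Sbf2, an exchange factor for endosomal Rabs, was at 9.41 and 8.49 CPM in KO, against 15.7 and 31.8 CPM in control (log2 fold change -1.42 ± 0.41, adjusted p = 0.188, edgeR). Dennd4c, which activates Rab10, had a log2 fold change of -0.73 ± 0.23 (adjusted p = 0.216, edgeR). Dennd3, which activates Rab12, had one of 0.96 ± 0.34 (adjusted p = 0.258, edgeR). Rab10 and Rab12 themselves had log2 fold changes of -0.03 ± 0.26 and 0.10 ± 0.23.

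Effectors gave 0 calls among 46 by edgeR and 3 by DESeq2, which called 977 of 20389 genes in all. At an unadjusted p below 0.05 by edgeR 5 were higher and 6 lower, beside 13.9% of all tested genes. Libraries of the genotypes did not overlap for 32 of the 46, 15 higher and 17 lower, where the background was 46.8%. Sytl1, which links Rab27 to vesicle membranes and the plasma membrane, was at 60.4 and 43.7 CPM in KO, against 17.5 and 9.49 CPM in control (log2 fold change 1.96 ± 0.37, adjusted p = 0.0664, edgeR). Osbpl1a, a sterol-sensing effector of Rab7, was at 28.2 and 33.5 CPM in KO, against 9.08 and 10.3 CPM in control (1.67 ± 0.33, adjusted p = 0.073, edgeR). Bicd1, which couples Rab6 to the motor dynein, was at 5.34 and 7.76 CPM in KO, against 0 and 0.635 CPM in control (4.14 ± 1.11, adjusted p = 0.158, edgeR). All 3 had KO libraries above control libraries, and DESeq2 called each.

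**Figure D5:**
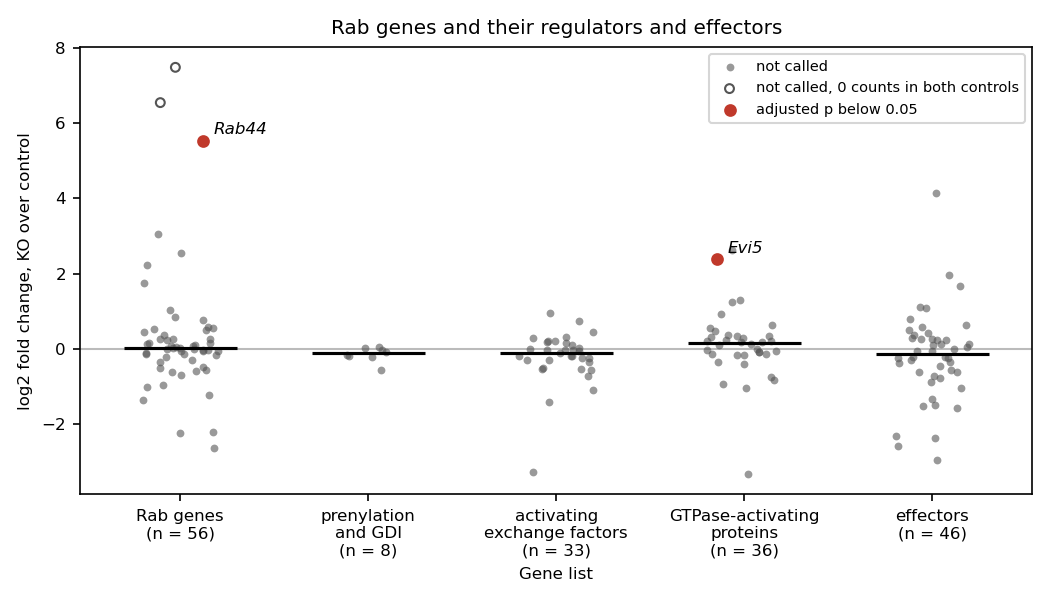
log2 fold change of each tested Rab gene and of its regulators and effectors, KO over control, with a line at each list's median. Open circles are Rab genes with no reads in either control library, whose fitted values depend on the model; Rab44 at 5.54 and Evi5 at 2.38 are the genes with an edgeR adjusted p below 0.05.

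Markers of other cells were read out because Rab44 has been described in myeloid cells. The 11 mast cell and basophil markers summed to 1.21 and 3.40 CPM in KO, against 4.20 and 2.19 CPM in control, with Fcer1a at 0 in every library. The 10 granulocyte markers summed to 2.47 and 1.57 CPM in KO, against 7.06 and 0.721 CPM in control. The 10 macrophage and osteoclast markers summed to 26.4 and 47.9 CPM in KO, against 53.2 and 58.7 CPM in control, and the 8 dendritic cell markers to 23.9 and 19.3 CPM in KO, against 33.7 and 19.1 CPM in control. Only 3 mast cell and basophil, 3 granulocyte, 10 macrophage and osteoclast and 7 dendritic cell markers passed the filter and were tested, and edgeR called none of them. Of the mast cell and basophil markers 7 were below 1 CPM in every library, as were 7 of the granulocyte markers.

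The sums of the DP and double-negative markers given above, and of the macrophage and osteoclast markers, did not overlap between genotypes. Nor did those of 2 further lists. Erythroid markers summed to 38.0 and 26.2 CPM in KO, against 8.66 and 14.02 CPM in control, with 1 of 6 called higher, and the alpha and beta globin genes were listed at 0 in both control libraries. Thymic epithelium markers summed to 29.7 and 32.4 CPM in KO, against 16.1 and 18.2 CPM in control. The higher sum came from Epcam, at 11.6 and 15.1 CPM in KO, against 1.09 and 4.88 CPM in control, and from Ccl25. Ccl25 was at 17.8 and 17.2 CPM in KO, against 10.9 and 10.4 CPM in control. Foxn1, Krt8 and Psmb11 went the other way at low levels, lower in both KO libraries than in either control library. Krt5 was at 0.0574 and 0 CPM in KO, against 0.925 and 0.0577 CPM in control, so KO 1 and control 2 were nearly equal. B cell markers summed to 10.7 and 7.73 CPM in KO, against 9.33 and 7.01 CPM in control. None of the thymic epithelium and B cell markers was called, and the part of any of these lists in the Rab44 result was not tested.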

How the data were processed

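Per the labels' protocols, 10 ng of total RNA went into each bulk library, made by SMART-seq Standard. The authors deposited whole-number read counts per gene symbol, with no normalisation, in a separate file for each library. Column names point to HISAT2, per the file headers. Per the submitters' processing notes, the tools included featureCounts 2.0.8, HISAT2 2.2.1, edgeR 3.36.0 and cutadapt 4.0, and the build was mm10. The sources used here do not state the annotation, the strand setting or how multiply matching reads were handled.

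The tests ran in edgeR 4.0.16 under R 4.3.3. filterByExpr (minimum count 10, minimum total 15) left 20389 genes, scaled by TMM. A quasi-likelihood test with genotype as the only term was fitted over all genes, with Benjamini-Hochberg adjustment and a threshold of 0.05. The SE is the log2 fold change divided by the square root of F, and residual degrees of freedom were 2. Alternatives were other scalings, filters and tests (DESeq2 1.42.0 among them), a replicate block, and leaving out each library. Replicates of a genotype differed beyond sampling noise, with a chi-square over its degrees of freedom of at least 51.9. Positions are RefSeq spans on GRCm38.p6, the assembly mm10 names, with all 59 members matched.

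The members, gene lists and rules for naming genes were chosen with earlier results of these data known. Named with values were Rab44, members with an unadjusted p below 0.05, the strongest member per role, the largest rise and fall, and per regulator list up to 3 genes with the smallest p below 0.05, otherwise the strongest. Cracr2a, Rasef and the 2 nearest tested neighbours on each side of Rab44 were always named. Members with a mean below 0.5 CPM were to be named only. Rab17, Mrpl48, Evi5l, Tbc1d10c and all other members given with values were named after their values were seen.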

Additional observations from a re-analysis of the deposited data

How the results depend on the processing

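Rab44 remained called under all 12 alternatives, between 5.12 and 5.91 on the log2 scale, and the other scalings left the family count at 1. The count of all changed genes, 92, was 920 with no low-count filter, 228 at a minimum of 5 CPM, 977 by DESeq2, 997 by the likelihood ratio test, and 9 to 619 when a replicate was left out. The 9 were without KO replicate 1 and held 8 of the 92. The family count was 1 to 2 when a replicate was left out. Over all genes, edgeR's newer quasi-likelihood setting called 119 of 20389, and 30613 genes were tested with no filter and 11276 at 5 CPM. Regulators and effectors, 1 in the primary test, numbered 8 of 123 with no filter and 2 of 100 at 5 CPM. They numbered 6 by DESeq2, 2 with that newer setting and 5 by the likelihood ratio test. Leaving out a replicate gave 0 to 4, the 0 by edgeR without KO replicate 1, where 7 had an unadjusted p below 0.05. Cxxc1 passed the threshold with no filter (-1.09) and by DESeq2 (-1.15), and ran from -1.56 to -0.51 when a replicate was left out, passing without control replicate 2 (-1.56).

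Same-numbered libraries did not deviate together (correlation -0.00956). From 2 libraries per genotype that value cannot settle whether the numbers pair libraries, and the labels do not say. With the replicate block, which leaves 1 residual degree of freedom fewer, 1599 genes, 16 regulators and effectors and 1 Rab gene were called, and Cxxc1 passed at -1.03.

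Among the 25 other named genes, 1 call ended, that of Evi5 without KO replicate 1, and 39 alternative values became calls. Signs turned only in genes that the primary test did not call. Rab5c was at -0.0099 at 5 CPM. Gdi2 was at -0.012 with RLE scaling and by DESeq2, and -0.068 at 5 CPM. Gm41557 was at 0.95 under the block. Leaving out replicates gave -0.42 to 0.077 for Rab2a, -0.058 to 0.21 for Rab5c, -0.20 to 0.069 for Rab14, -0.092 to 0.14 for Gdi2, -0.23 to 3.04 for Cdkn1a, -0.38 to 9.19 for Trp53cor1 and -2.03 to 6.53 for Gm41557. The causes were not tested. A lone library left in a genotype was assumed to vary like the other genotype's. Rab genes below 10 CPM had a median standard error of 1.76, and how much of it comes from depth was not tested.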

Other observations

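Several weakly expressed Rab genes had reads in 1 control library and few or none in the other. Rab7b, an endosome to Golgi Rab, had 3 and 14 reads in KO, against 28 reads in control 1 and 0 in control 2, although control 2 held more reads in all. Rab26, a secretory granule Rab, had 28 and 16 reads in KO, against 13 and 0 in control 1 and control 2. Rab32 and Rab3b had the reverse pattern in the controls, with 0 reads in control 1 and 83 and 33 reads in control 2. Rab33a, a Golgi Rab of the immune system and brain, was at 0.861 and 1.85 CPM in KO, against 0.42 and 4.99 CPM in control 1 and control 2.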
